A study of Homo sapiens with 13 samples.

Results

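The comparison was KMS12 myeloma cells at day 4 or 5 of IRF4 knockdown against the same cultures before induction. KMS12 is a human line of malignant plasma cells. Its members were the 6 arrays, of 13 in the whole series, that the labels give as KMS12 at day 4 or 5 or as untreated in series 1332, 1332b and 2046. At days 4-5 both cultures of an array had received 20 ng/ml doxycycline, with series 1332 taken at day 5 and series 1332b and 2046 at day 4. The 3 uninduced arrays, 1 per series, came from the same infected cultures without doxycycline. Each array set a culture carrying an inducible short hairpin against IRF4, named shi_1332, shi_1332b or shi_2046, against a culture with a luciferase hairpin (shluc), and all groups carried these constructs. Day and series are confounded within the window and cannot be told apart, and the labels do not say whether the infected cells were pooled or cloned, or whether series came from separately infected cultures. What the p-values weigh is therefore the scatter among the arrays, part or all of it perhaps technical.

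IRF4 is a transcription factor of the interferon regulatory factor family that lymphocytes use on activation and that plasma cells need to form and to survive. It binds DNA at pairs of GAAA and, with ETS partners such as PU.1, at composite sites. Myeloma cells of diverse genetic origin depend on it, and the genes it controls include those of plasma cell identity, growth and metabolism.

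The values were log2 ratios of the IRF4 hairpin culture over the control culture on 2-colour Lymphochip cDNA arrays, spotted arrays built for lymphoid genes. Negative ratios thus stand for transcripts that were scarcer where the IRF4 hairpin was carried. Each array was centred on its median gene, so every value is relative to the median gene, and the features of a gene were averaged. Every gene was then described by its 3 pair differences, day 4-5 ratio minus uninduced ratio of the same series, which cancel a dye effect that is fixed for a gene. Of 15246 features, 5128 were measured on all 6 arrays, which gave 3723 entries to test, 2330 named genes and 1393 unnamed features. Between 7861 and 14228 features were measured on each of the 6 arrays. A ratio holds no level, so the labelled cell type could be checked only as far as plasma cell genes being measured: SDC1, CD38, TNFRSF17, SLAMF7, XBP1 and IRF4 were measured on all 13 arrays. Over all features the lowest correlation between any pair of arrays was -0.33, between SKMM1 and the uninduced array of series 2046, and the direction of the ratios was kept as the dyes in the labels give it. In bulk cultures such as these, fewer cells of a type and less RNA per cell cannot be told apart.

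IRF4 itself was measured by 2 features. At days 4-5 IRF4 mRNA was 66.7%, 64.6% and 59.4% of that in the luciferase hairpin cells (series 1332, then 1332b, then 2046), against 118%, 109% and 108% on the uninduced arrays in the same order. The groups did not overlap, and all 3 series differed by a similar amount, with pair differences of -0.82, -0.76 and -0.86 on the log2 scale. Each of the 2 features lay lower at days 4-5 in every series. The mean log2 ratio was -0.66 ± 0.09 at days 4-5 and 0.16 ± 0.07 uninduced (SD, n = 3 each), a difference of -0.81 (SE 0.18) with a limma adjusted p of 0.370. At days 2-3 the percentages were 45.9, 29.7 and 48.9, each below the value of the same series at days 4-5.

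Across all genes the paired limma fit called 0 of 3723 at a Benjamini-Hochberg adjusted p under 0.05 (0%), with 0.335 as the smallest adjusted p. At an unadjusted p under 0.05 there were 367 (9.86%), of which 107 were lower and 260 higher at days 4-5. No gene can therefore be said to have risen or fallen on its own test, and the values that follow are given as levels and differences. Of the 3723 entries, 1770 had a mean difference below 0 and 1953 above 0, which the counts of list members below can be read beside. A second description counted genes whose 3 day 4-5 ratios all lay on one side of the 3 uninduced ratios, with all 3 pair differences of that sign. By this count 194 genes were lower without overlap (5.21%) and 250 higher without overlap (6.72%), of which 133 and 164 were named. Random order of 3 arrays against 3 gives separations at shares close to these, so the count alone marks no gene as responding. Where arrays were centred on every feature they measured instead, the split was 397 lower and 92 higher, and with no centring it was 384 and 113. Among the 194, only 3 differed by 2-fold or more, whereas 39 of the 250 did.

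The series did not respond alike. Pair differences of 2-fold or more numbered 96 lower and 343 higher in series 1332, 23 and 41 in series 1332b, and 91 and 110 in series 2046. Across the 3723 genes, which are not independent replicates, the pair differences of series 1332 and 2046 had a correlation of 0.36, those of 1332 and 1332b 0.08, and those of 1332b and 2046 0.10. Series 1332 and 1332b were thus the least alike by this measure.

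INSIG1 headed the 15 lowest named genes among those without overlap. INSIG1 is the protein of the endoplasmic reticulum that holds back the sterol sensor, and its gene is a classic target of the sterol-responsive factors SREBP. Its log2 ratios were -1.56, -0.99 and -0.82 at days 4-5 in series 1332, 1332b and 2046, against 0.41, -0.06 and 0.14 uninduced (difference -1.28, SE 0.26). All 3 cultures at days 4-5 lay below every uninduced one, which the choice of these 15 genes required. SCD, the desaturase that turns stearate into oleate, was measured by 4 features that agreed in sign, with -0.87, -0.86 and -0.47 at days 4-5 and 0.39, 0.06 and 0.15 uninduced (difference -0.93, SE 0.21). FADS1, which desaturates polyunsaturated fatty acids, had -0.86, -0.57 and -0.80 at days 4-5 and 0.27, -0.11 and 0.31 uninduced. SQLE, squalene epoxidase of the cholesterol pathway, had -1.30, -0.48 and -0.17 at days 4-5 and 0.15, 0.24 and 0.36 uninduced over 3 features. For SQLE the series spread widely at days 4-5.

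PIM2, a survival kinase that is abundant in myeloma, had ratios of -0.64, -1.15 and -0.79 at days 4-5, against 0.46, 0.19 and -0.21 uninduced (difference -1.004, SE 0.22). AARS1, the synthetase that charges tRNA with alanine, had -1.13, -0.94 and -0.41 at days 4-5 and 0.22, 0.16 and 0.14 uninduced (difference -0.999, SE 0.23). ELL2, the elongation factor that directs immunoglobulin mRNA to its secreted form, had -1.11, -0.55 and -1.30 at days 4-5 and 0.77, -0.31 and -0.45 uninduced (difference -0.99, SE 0.32). In ELL2 most of the distance came from series 1332, whose uninduced ratio was high. ATF4, the factor that drives amino acid supply under stress, had -1.29, -0.41 and -0.54 at days 4-5 and 0.07, -0.03 and 0.19 uninduced over 3 features. HSPA9, the mitochondrial HSP70, had -0.13, -0.79 and -0.71 at days 4-5 and 0.60, 0.03 and 0.28 uninduced.

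The other members of the 15 were API5, an inhibitor of apoptosis (-0.85), FRMD6, an upstream part of the Hippo pathway (-0.83), CCNC, cyclin C of the Mediator kinase module (-0.82), IRF4, BMP6, a secreted ligand of the TGF-beta family (-0.80), and NLK, a kinase that acts on WNT signalling (-0.80). Across the 15 the differences ran from -1.28 to -0.80 and the limma adjusted p from 0.370 to 0.458. The 6 of them with several features had all features on the same side. Measured on all 13 arrays were 11 of the 15, and the other 4 were measured on 10 to 12.

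**Figure D1:**
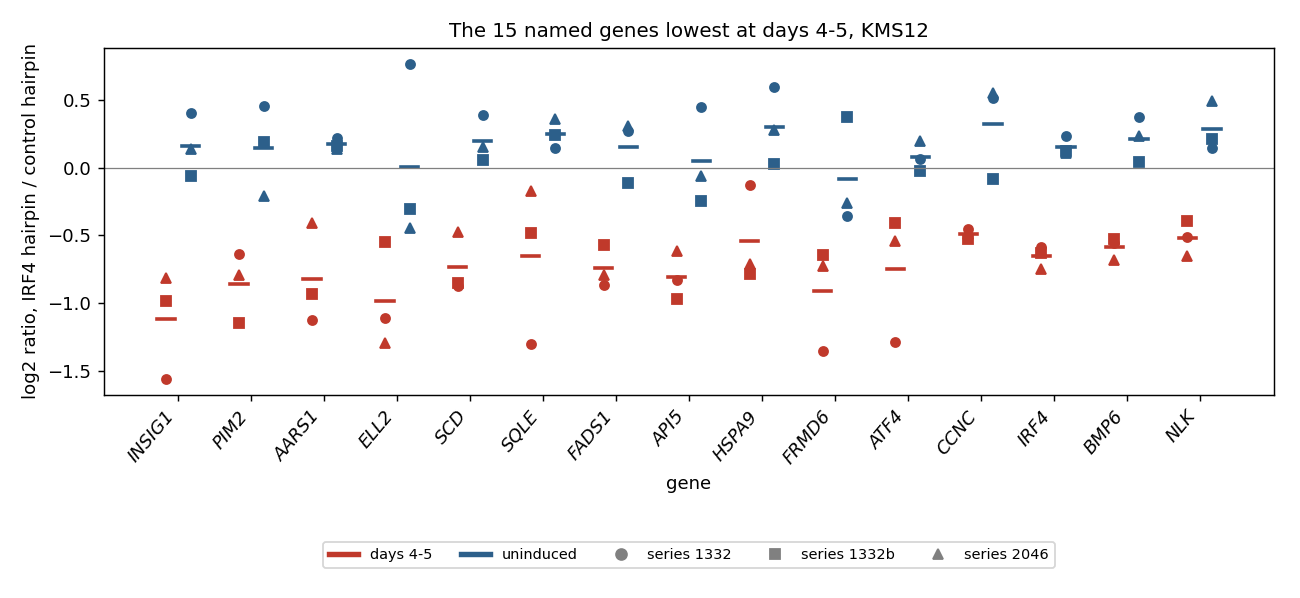
Log2 ratio of IRF4 hairpin over control culture for the 15 named genes with the lowest day 4-5 minus uninduced difference and no overlap, in red at days 4-5 and in blue uninduced. Each marker is 1 array, its shape the series, and the bar is the mean of 3. For every gene the 3 red markers lie below the 3 blue ones, which is how the genes were chosen.

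Promoters of these genes were read from RefSeq (GRCh38.p14), 250 bases before to 50 after each gene's start. Of the 15 lowest genes 12 had an entry, as did 10 of the 12 sterol and fatty acid genes tested and 22 of the 26 genes of the ATF4 and tRNA synthetase lists. The motifs were searched on both strands and compared with their share in all 35116 promoters of the table. INSIG1 and SCD are shown because they led the lipid genes. Capitals mark CCAAT or its inverse ATTGG and the E-box CACGTG. The windows are chr7:155297628-155297927, plus strand, and chr10:100346983-100347282, plus strand.
INSIG1: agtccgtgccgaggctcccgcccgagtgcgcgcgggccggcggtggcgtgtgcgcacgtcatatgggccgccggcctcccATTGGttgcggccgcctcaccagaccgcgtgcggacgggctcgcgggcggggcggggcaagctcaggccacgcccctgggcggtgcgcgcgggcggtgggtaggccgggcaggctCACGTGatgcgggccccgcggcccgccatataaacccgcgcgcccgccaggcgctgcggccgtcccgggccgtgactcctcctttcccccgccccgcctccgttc
SCD: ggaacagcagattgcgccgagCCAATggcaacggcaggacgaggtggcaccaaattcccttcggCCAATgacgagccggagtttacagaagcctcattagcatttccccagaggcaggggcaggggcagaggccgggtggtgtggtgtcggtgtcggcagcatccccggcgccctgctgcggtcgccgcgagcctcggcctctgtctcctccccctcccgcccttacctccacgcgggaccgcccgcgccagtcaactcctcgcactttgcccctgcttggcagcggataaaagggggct
The CCAAT box lay in 8 of the 12 lowest genes with an entry (66.7%) and in 34.6% of all promoters, and in 7 of 10 sterol and fatty acid genes. The E-box lay in 3 of 12 (INSIG1, HSPA9 and ATF4; 25%) and in 7.26% of all promoters. The sterol element core CACCCCAC lay in 1 of 10 sterol and fatty acid genes, SREBF2, and in 2.79% of all promoters.

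The IRF motif GAAANNGAAA was found in 0 of the 12 lowest genes with an entry, and the ETS-IRF composite GGAANNGAAA in 0 of them too, beside 3.57% and 2.82% of all promoters. Among the 14 promoters of the 15 highest genes named further on, LAP3 held the first and RIPOR2 and GPR183 held the second. No match says only that these letters are absent from this window.

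The tRNA synthetases stood lower as a group. These enzymes load each amino acid onto its tRNA, and several of their genes carry elements bound by ATF4. The list also holds AIMP1, a scaffold protein of the synthetase complex. All 8 members tested lay below 0 in their mean difference, with a median of -0.55, where the median over all genes tested was 0.02. AARS1, GARS1 and WARS1 were lower without overlap (3 of 8, beside the 5.21% of all genes), and 0 of 8 passed the adjusted test. GARS1, for glycine, had -0.80, -0.42 and 0.03 at days 4-5, against 0.49, 0.07 and 0.45 uninduced. WARS1, for tryptophan, had -0.61, -0.49 and -0.07 at days 4-5 and -0.03, 0.01 and 0.26 uninduced. The series were uneven, with list medians of -0.90 in series 1332, 0.04 in series 1332b and -0.52 in series 2046, and with the day 4-5 ratios read against 0, leaving out the uninduced arrays, the list median was -0.32. TARS1, for threonine, shows the unevenness: it had -0.65, -0.39 and -0.52 at days 4-5, and 0.54, -0.60 and 0.46 uninduced, so that the uninduced ratio of series 1332b lay among those of days 4-5.

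The core of the ATF4 element, searched as TGATGNAA and added to the motifs after the values were seen, lay in 7 of the 22 promoters of the ATF4 and synthetase lists (31.8%) and in 3.62% of all promoters. The 7 were AARS1, TARS1, NARS1, IARS1, ASNS, SLC3A2 and GOT1. These lists were drawn up by gene function, in part by a known tie to ATF4, so their share is no result of these arrays. The core lay in 1 of the 12 lowest genes with an entry (AARS1, 8.33%). Among the 15 highest genes it lay in 1 of 14 (BRD10, 7.14%). The synthetase promoters are shown with that core in capitals, since 4 of the 8 tested members held it. The windows are chr16:70289457-70289756, minus strand, then chr5:33440715-33441014, plus strand, then chr18:57621787-57622086, minus strand, and chr9:92293648-92293947, minus strand.
AARS1: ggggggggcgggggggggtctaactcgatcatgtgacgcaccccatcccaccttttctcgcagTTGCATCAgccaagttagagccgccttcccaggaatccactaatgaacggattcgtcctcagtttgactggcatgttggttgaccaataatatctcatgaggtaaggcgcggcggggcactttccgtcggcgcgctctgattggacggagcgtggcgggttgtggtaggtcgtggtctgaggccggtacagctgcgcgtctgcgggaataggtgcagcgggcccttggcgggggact
TARS1: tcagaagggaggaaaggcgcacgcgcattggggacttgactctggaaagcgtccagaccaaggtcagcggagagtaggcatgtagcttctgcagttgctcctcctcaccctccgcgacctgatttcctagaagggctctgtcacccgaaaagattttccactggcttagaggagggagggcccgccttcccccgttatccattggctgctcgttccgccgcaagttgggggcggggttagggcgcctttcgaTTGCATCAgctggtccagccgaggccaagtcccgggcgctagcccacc
NARS1: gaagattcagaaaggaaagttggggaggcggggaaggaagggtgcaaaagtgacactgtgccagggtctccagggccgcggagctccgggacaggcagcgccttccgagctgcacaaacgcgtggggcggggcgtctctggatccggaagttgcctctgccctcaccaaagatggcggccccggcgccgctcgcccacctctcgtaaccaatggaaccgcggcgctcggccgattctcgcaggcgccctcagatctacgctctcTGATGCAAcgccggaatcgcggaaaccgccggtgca
IARS1: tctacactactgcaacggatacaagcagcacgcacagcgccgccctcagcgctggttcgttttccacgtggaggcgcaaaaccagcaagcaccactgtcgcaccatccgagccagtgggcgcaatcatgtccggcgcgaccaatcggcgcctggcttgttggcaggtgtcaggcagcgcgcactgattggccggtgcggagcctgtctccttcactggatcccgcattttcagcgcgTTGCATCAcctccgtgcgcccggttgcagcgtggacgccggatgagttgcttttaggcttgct
The core begins 187 bases before the start in AARS1 and 13 before it in IARS1, and it lies just after the start in TARS1 and NARS1. NARS1, for asparagine, differed by -0.63 and IARS1, for isoleucine, by -0.45, and both groups overlapped. A match is a run of letters and was not tested as a site.

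Within the list of ATF4, amino acid supply and stress the values varied by member. Of 18 members tested, 12 lay below 0 with a median of -0.09, and 6 were lower without overlap (33.3%, beside 5.21% of all genes), with 0 higher without overlap and 0 past the adjusted test. Over the 11 members measured on all 13 arrays 9 lay below 0 and the median was -0.36. The median of all 18 was -0.18 without series 1332, -0.27 without series 1332b and -0.21 against 0. The 6 were ATF4, MTHFD2, SLC7A5, PYCR1, SLC3A2 and SHMT2. SLC7A5 and SLC3A2 form the transporter of large neutral amino acids. SLC7A5 had -0.84, -0.59 and -0.36 at days 4-5, against 0.28, -0.13 and -0.05 uninduced, and SLC3A2 had -0.73, -0.39 and -0.34 against -0.18, -0.11 and 0.10. PYCR1, which makes proline, had -0.43, -0.39 and -0.77 at days 4-5 and -0.13, 0.24 and 0.17 uninduced. MTHFD2 and SHMT2, of mitochondrial one-carbon metabolism, differed by -0.69 and -0.36. The stress genes of the same list lay elsewhere: ASNS differed by -0.08, TRIB3 by 0.00 and DDIT3 by 0.01, and CEBPB by 0.26. The features of TRIB3 and of DDIT3 did not agree in sign.

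Sterol genes also varied by member. Of 7 tested, INSIG1 and SQLE were lower without overlap (28.6%, beside 5.21% of all genes). SREBF2, the sterol-responsive transcription factor, was higher without overlap (14.3%, beside 6.72%). It had 0.92, 0.17 and 0.38 at days 4-5 and -0.14, 0.07 and -0.33 uninduced. IDI1, of the mevalonate pathway, had -1.07, 0.08 and -0.72 at days 4-5, against 0.17, -0.30 and 0.85 uninduced, so it was lower in series 1332 and 2046 and higher in 1332b. FDPS and STARD4 both differed by 0.71, each from 1 feature measured on 10 arrays. The median of the list was -0.26 and that of the 5 fatty acid genes -0.32, and by series the fatty acid median was -0.33, 0.00 and -0.69. The sterol median was -0.12 without series 1332, -0.39 without series 1332b and -0.50 against 0. The fatty acid median was -0.14 without series 2046, -0.20 without its uninduced array and -0.51 without series 1332b.

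Genes of the machinery that makes and exports secreted protein lay below 0 in most members. A plasma cell folds antibody in the endoplasmic reticulum with chaperones and passes it through coated vesicles. Of the 12 endoplasmic reticulum and unfolded protein response genes 10 lay below 0 (median -0.29), and of the 20 secretory transport genes 17 did (median -0.19). In both lists 0 passed the adjusted test, and only KDELR1, the receptor that returns escaped chaperones, was lower without overlap (0 of 12 and 1 of 20, 5%, beside 5.21% of all genes). The endoplasmic reticulum median was -0.17 without series 2046, -0.16 without its uninduced array and -0.06 against 0, and the transport median was -0.11 without series 2046 and against 0. Its ratios were -0.10, -0.996 and -0.86 at days 4-5 and 0.19, 0.08 and -0.07 uninduced. HSP90B1, the chaperone GRP94, had -0.29, -0.32 and -0.92 at days 4-5, against 0.57, -0.36 and 0.58 uninduced, and HSPA5, the chaperone BiP, had 0.36, -0.73 and -0.50 against 0.51, 0.11 and 0.29. HSPA5 was lower in every series and HSP90B1 in series 1332 and 2046, with pair differences of -0.86, 0.04 and -1.50 for HSP90B1, and the groups of both overlapped. LMAN1, a cargo receptor for export, differed by -0.56 and DNAJC10, a reductase of the same compartment, by -0.55.

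Genes of plasma cell identity varied by member. Among 11 regulators, ELL2 and IRF4 were lower without overlap (18.2%, beside 5.21% of all genes) and ID3, an inhibitor of E proteins, was higher without overlap (9.09%, beside 6.72%). XBP1, which builds the secretory apparatus, had -0.16, -0.28 and 0.37 at days 4-5 and 0.21, 0.07 and 0.61 uninduced, lower in every series but with overlap. PRDM1 and POU2AF1, 2 further plasma cell regulators, lacked a feature measured on all 6 arrays and were not tested; over features measured in at least 2 series their mean pair differences were -0.43 and -0.40. That centring places a gene read from the same features 0.14 lower than the values given elsewhere. Among 16 surface receptors, TNFRSF17 and SLAMF7 were lower without overlap (12.5%, beside 5.21% of all genes). CXCR4 and FCRL5, described further on, were higher without overlap, at 0.77 and 1.62 (12.5%, beside 6.72%). TNFRSF17, the BAFF and APRIL receptor BCMA, had -0.94, -0.47 and -1.07 at days 4-5 and -0.06, -0.45 and 0.09 uninduced. In series 1332b its pair difference was only -0.03. SLAMF7, the antigen CS1, had -0.30, -0.71 and -1.05 at days 4-5, against -0.22, 0.12 and -0.24 uninduced. SDC1, the plasma cell marker CD138, differed by only -0.12 (SE 0.19). CD38 differed by -0.30 (SE 0.22). Mean differences of immunoglobulin genes and their partners ranged from -0.19 for IGHD to 0.18 for IGHM over 5 members. JCHAIN, a partner with a mean of -0.03 (SE 0.46), had pair differences of 0.12, 1.22 and -1.425 in series 1332, 1332b and 2046.

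Growth and energy lists lay a little below the median gene in most members. For MYC and growth targets 18 of 22 members lay below 0 (median -0.20). IMPDH2, of guanine nucleotide synthesis, and SHMT2 were lower without overlap (9.09%, beside 5.21% of all genes). MYC itself had -0.07, -0.42 and -0.01 at days 4-5 and 0.56, -0.19 and 0.39 uninduced, lower in all 3 series over 4 features of like sign. NCL, nucleolin, a nucleolar protein of ribosome assembly, was the only lower gene among the 10 with the smallest p, with 0.18, -2.63 and -2.62 at days 4-5 and 1.14, -1.10 and -0.39 uninduced (difference -1.57, SE 0.27). Its pair differences of -0.95, -1.53 and -2.23 rest on 1 feature, and its groups overlapped. Without the uninduced array of series 2046 the median of the list was -0.07, without series 2046 it was -0.08, without series 1332 it was -0.30, and against 0 it was -0.10.

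All 13 citric acid cycle genes and all 10 respiratory chain and ATP synthase genes lay below 0, with a median of -0.21 each and with PDHB and CYCS lower without overlap (7.69% and 10%, beside 5.21% of all genes). The respiratory median was -0.09 without the uninduced array of series 2046, -0.04 against 0 and -0.33 without series 1332b. CYCS, cytochrome c, had -0.18, -0.37 and -0.55 at days 4-5 and 0.24, -0.06 and 0.76 uninduced. In glycolysis 14 of 17 lay below 0 (median -0.18), with GPI and ALDOC lower without overlap (11.8%), whereas the hexokinases HK2 and HK1 differed by -0.58 and 0.62. That median was -0.10 without the uninduced array of series 2046 and -0.28 without series 1332. Of the G1/S genes 24 of 32 and of the G2/M genes 22 of 31 lay below 0, with medians of -0.15 and -0.12. POLA1 and RB1 in the first list and PLK1 and AURKA in the second were lower without overlap (6.25% and 6.45%), shares near the 5.21% of all genes. The G1/S median was -0.10 without series 1332, -0.09 without the uninduced array of series 2046 and -0.03 against 0, and the G2/M median was -0.06 without series 1332. PLK1, a mitotic kinase, had -0.24, -0.80 and -0.50 at days 4-5 and -0.06, -0.04 and -0.06 uninduced. CDKN1A, the cell cycle inhibitor p21, differed by 0.61 (SE 0.25), with most of it in series 1332. None of these lists had a member past the adjusted test.

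Further lists kept close to these sizes. Medians were -0.25 for heat shock proteins, -0.23 for translation factors, -0.21 for splicing factors and RNA helicases, -0.16 for redox and iron genes and -0.11 for cytosolic ribosomal proteins. The heat shock, redox and ribosomal medians turned positive, at 0.01, 0.03 and 0.13, when the day 4-5 arrays were read against 0 in place of the uninduced arrays, and the heat shock and ribosomal ones also without series 2046, at 0.01 and 0.08. Without the uninduced array of series 2046 the medians were -0.13 for heat shock proteins, -0.11 for translation factors, -0.07 for splicing factors and -0.01 for redox genes, and the ribosomal one was 0.09. Without series 2046 altogether the median was -0.11 for translation factors, -0.005 for splicing factors and -0.005 for redox genes. KEAP1, the sensor that restrains the oxidative stress factor NRF2, was lower without overlap, with -0.48, -0.84 and -1.29 at days 4-5 and 0.13, -0.26 and -0.26 uninduced. Immediate early genes, which follow receptor and MAP kinase signals, had a median of 0.18 over 14 members, 0.10 without series 1332 and 0.08 against 0. In that list NR4A1 and DUSP5 were lower without overlap, at -0.75 and -0.63 (14.3%, beside 5.21% of all genes), and ZFP36L2, JUN and DUSP4 were higher without overlap, at 0.33, 0.50 and 0.86 (21.4%, beside 6.72%). The BCL2 family and death regulators had a median of 0.11 over 25 members, which was -0.03 without series 1332, -0.08 without series 1332b, -0.05 against 0, -0.09 with arrays centred on every feature and -0.08 with no centring. BCL2 and CYCS were lower without overlap (8%) and FADD, an adaptor of death receptors, was higher (4%). CASP8, a caspase of the same receptors, was the highest member at 0.37, and its groups overlapped. BCL2, the inhibitor of apoptosis, was the lowest, with -0.69, -0.05 and -0.02 at days 4-5 and 0.48, 0.19 and 0.64 uninduced.

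**Figure D2:**
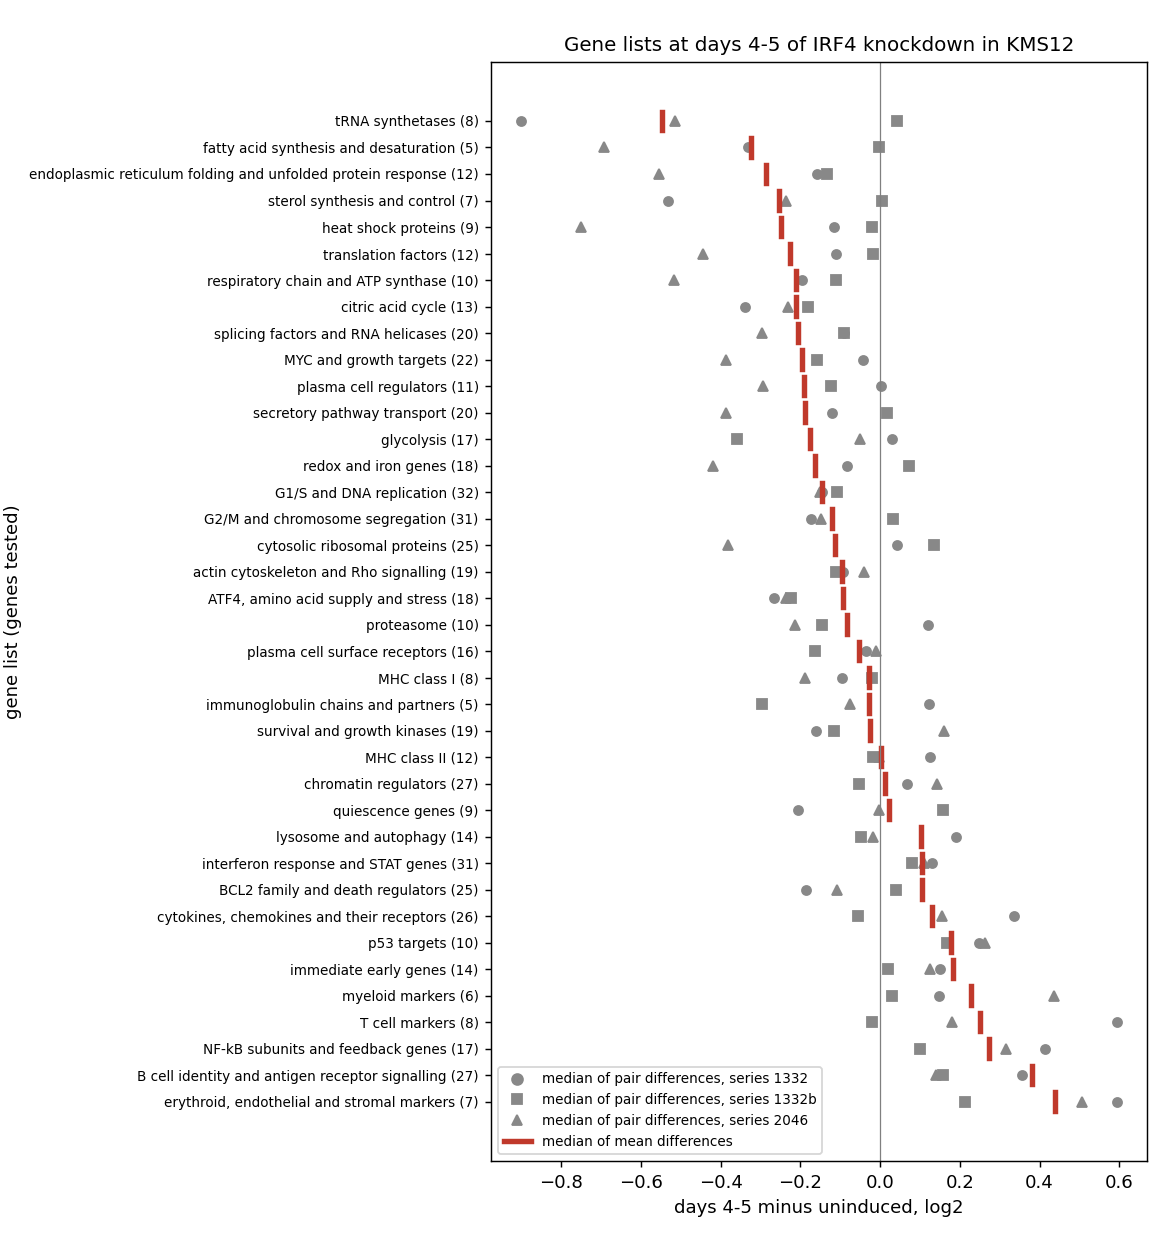
Median day 4-5 minus uninduced log2 difference of each gene list, with the number of genes tested in brackets. Red bars are the median of the mean differences and grey markers the median pair difference of each series. The tRNA synthetases lie lowest at -0.55 and the erythroid, endothelial and stromal markers highest at 0.44, and the markers of series 1332b are often nearest to 0.

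The genes that stood highest were of another kind. The 15 named genes with the largest positive difference among those without overlap ran from 2.09 for RIPOR2 to 1.09 for BRD10, and each rested on 1 feature. RIPOR2, a regulator of RhoA, had 0.21, -0.41 and -0.05 at days 4-5, against -4.59, -0.98 and -0.97 uninduced. GPR39, a zinc-sensing receptor, had the smallest p of the fit, with 0.04, 1.23 and 1.15 at days 4-5 and -1.47, -0.32 and -0.73 uninduced (difference 1.65, SE 0.20, limma adjusted p 0.335). FCGR2B, the inhibitory Fc receptor of B cells, had 0.74, 0.54 and 0.38 at days 4-5 and -2.18, -0.34 and -0.96 uninduced. FCRL5, an Fc receptor-like protein of B and plasma cells, had -0.42, -0.18 and 0.45 at days 4-5 and -3.14, -0.97 and -0.91 uninduced. Over the 15, mean uninduced ratios ran from -2.18 to -0.46 and mean day 4-5 ratios from -0.09 to 0.81, the highest being that of GPR39, and 13 of the 15 had their largest pair difference in series 1332. With features measured on at least 10 of the 13 arrays, FCGR2B and FCRL5 had differences of -0.19 and -0.32 from other features.

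How often a gene was measured moved with these values. Of the 15 highest genes 10 were measured on 6 to 9 of the 13 arrays, 5 on 10 to 12 and 0 on all 13. Over all 127 genes measured on 6 to 9 arrays the median difference was 0.67, with 29 higher without overlap (22.8%) and 0 lower. Their median ratios were 0.36, -0.04 and -0.23 at days 4-5, against -0.75, -0.20 and -0.70 uninduced. For the 1339 genes measured on 10 to 12 arrays the median difference was 0.13, and for the 2257 measured on all 13 it was -0.04, with 156 lower and 101 higher without overlap. With arrays centred within these classes the 15 highest genes differed by 0.58 to 2.01 and the 15 lowest by -1.36 to -0.74. Counted that way 190 genes were lower and 237 higher without overlap, of which 154 and 197 were among the 194 and 250.

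**Figure D3:**
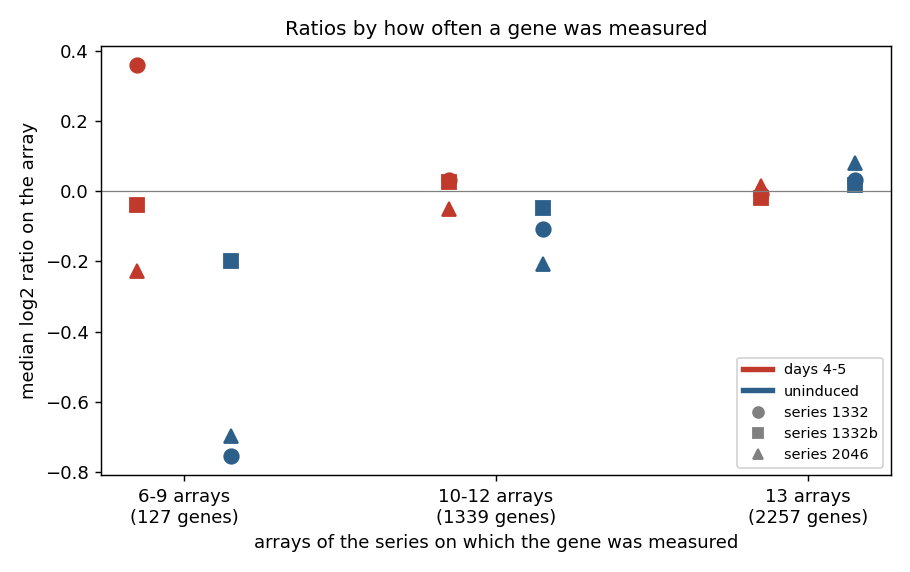
Median log2 ratio on each of the 6 KMS12 arrays for genes measured on 6 to 9, 10 to 12 or all 13 arrays, in red at days 4-5 and in blue uninduced, with the shape giving the series. In the least often measured class the uninduced medians of series 1332 and 2046 lie near -0.75 and -0.70, and in the class measured on all arrays every median lies between -0.02 and 0.08.

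Among genes measured on all 13 arrays, a set chosen after the values were seen, the 15 highest differed by 0.67 to 0.99. SGK1, a kinase induced by stress and glucocorticoids, had 0.84, 0.83 and 1.29 at days 4-5, against 0.07, 0.22 and 0.11 uninduced over 2 features. CXCR4, the chemokine receptor that homes plasma cells to bone marrow, had 0.84, 0.51 and 1.01 at days 4-5 and -0.17, -0.10 and 0.31 uninduced over 4 features. ID3 had 0.65, 0.87 and 0.84 at days 4-5 and -0.30, 0.18 and 0.20 uninduced. For all 3 genes each culture at days 4-5 stood above every uninduced one, which was required of the genes in this set. FN1, fibronectin, had 1.38, 0.95 and 1.62 at days 4-5 and 0.49, 0.41 and 0.53 uninduced over 5 features that agreed in sign. SCMH1, a Polycomb group protein, differed by 0.88 (SE 0.19) and CD53, a tetraspanin of leukocytes, by 0.67 (SE 0.19) over 5 features. The other members were MZF1, FMNL1, H2AC18, SPG7, CPNE5, HBA1, ELMO1, IL27RA and H2BC12. Adjusted p over the 15 ran from 0.370 to 0.483, so none passed.

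Of the 14 with a RefSeq promoter entry, SGK1 held the pair of GAAA (1 of 14, 7.14%, beside 3.57% of all promoters), and its window is shown for that reason, with the motif (here on the opposite strand) in capitals. It spans chr6:134318063-134318362, minus strand.
SGK1: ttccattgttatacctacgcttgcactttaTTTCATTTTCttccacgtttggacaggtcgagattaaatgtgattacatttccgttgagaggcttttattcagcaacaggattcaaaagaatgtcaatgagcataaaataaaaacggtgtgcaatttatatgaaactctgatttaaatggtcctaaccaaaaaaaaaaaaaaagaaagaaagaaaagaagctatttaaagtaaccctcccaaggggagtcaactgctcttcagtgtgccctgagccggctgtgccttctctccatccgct
The run begins 220 bases before the start.

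**Figure D4:**
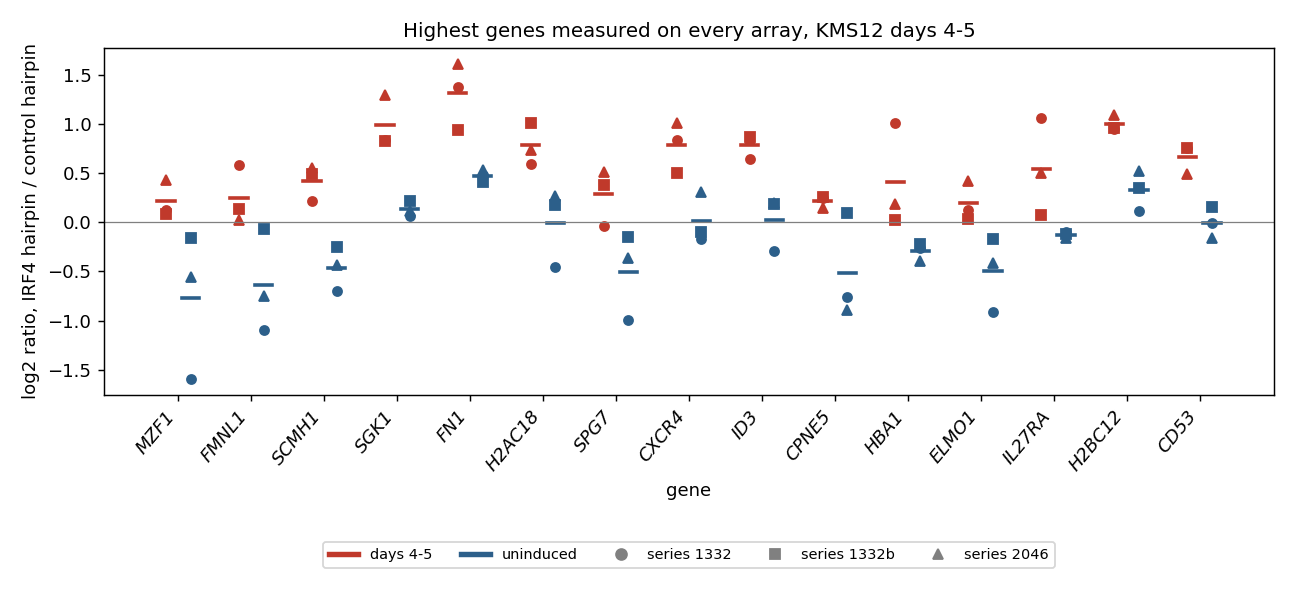
Log2 ratio for the 15 named genes measured on all 13 arrays that had the highest difference without overlap, in red at days 4-5 and in blue uninduced, drawn as for the lowest genes. Every gene but SPG7 lies above 0 on all 3 arrays at days 4-5. FN1, SGK1 and H2BC12 lie above 0 on all 3 uninduced arrays too, while MZF1 and FMNL1 are set apart mainly by low uninduced ratios in series 1332.

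Genes of earlier B cell stages leaned higher, by an amount that depended on how often they were measured. Of 27 genes of B cell identity and antigen receptor signalling 19 lay above 0 with a median of 0.38, and FCGR2B, BCL11A, ETS1, CR2 and SWAP70 were higher without overlap (18.5%, beside 6.72% of all genes). Over the 13 members measured on all 13 arrays the median was 0.02, with 7 above and 6 below. Over all 27 it was 0.08 without series 1332 and 0.02 against 0. BCL11A, a factor of early B cells, had 1.09, 0.35 and 0.86 at days 4-5, against 0.02, -0.45 and -0.49 uninduced (difference 1.08, SE 0.20), from 1 feature measured on 12 arrays. PTPN6, the phosphatase SHP-1 that dampens antigen receptor signals, was lower without overlap, with -1.14, -0.66 and -1.15 at days 4-5 and -0.43, 0.01 and -0.27 uninduced over 3 features. MS4A1, the antigen CD20, differed by -0.03, and the features of CD79B and BLK did not agree in sign.

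Genes that mark other cell types lay above 0 in most members. Of 8 T cell markers 7 lay above 0 (median 0.25, 1 higher without overlap, 12.5%), of 6 myeloid markers 4 did (median 0.23, 1 higher without overlap, 16.7%) and of 7 erythroid, endothelial and stromal markers 5 did (median 0.44, 4 higher without overlap, 57.1%), beside 6.72% of all genes and 22.8% of those measured on 6 to 9 arrays. Without series 1332 the T cell median was 0.07, and with series 1332b left out it was 0.41. The 4 were HBB, HBA1 and HBG1, which encode globins, and FN1. HBB had -0.03, 0.37 and 0.66 at days 4-5 and -0.91, -0.31 and -0.98 uninduced. The defining T cell genes CD3D and CD3E differed by 0.07 and 0.08, and the myeloid marker CD14 by -0.04. Only 3 T cell, 4 myeloid and 4 erythroid or stromal markers were measured on all 13 arrays, with medians of 0.07, 0.23 and 0.57. Their part in the B cell values was not tested.

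Signalling lists on the higher side were small in their shifts. Of 17 NF-kB subunits and feedback genes 15 lay above 0 (median 0.27), with CD83 and STAT5A higher without overlap (11.8%, beside 6.72% of all genes), and over the 11 measured on all arrays the median was 0.20. CD83, an activation marker of lymphocytes measured by 6 features, had 0.17, 0.20 and 0.26 at days 4-5 and -0.25, 0.04 and 0.01 uninduced. TNFAIP3, the feedback inhibitor A20, lay on the other side at -0.50. MAP3K14 was the highest member at 1.56, from 1 feature measured on 9 arrays, and its groups overlapped. With features measured on at least 10 of the 13 arrays it was -0.09. Against 0 the median of the list was 0.02. Interferon and STAT genes had a median of 0.11 over 31 genes, which was -0.09 with arrays centred on every feature, -0.08 with no centring, -0.06 against 0 and 0.05 without series 2046 or 0.07 without series 1332, with IFITM1, EIF2AK2, SP100 and STAT5A higher (12.9%) and STAT5B lower (3.23%) without overlap. IFITM1, measured by 6 features, had 0.71, 0.89 and 0.77 at days 4-5 and 0.03, 0.38 and 0.31 uninduced. PIK3R1, the regulatory subunit of PI3 kinase, had 0.48, 0.51 and 0.32 at days 4-5 and -0.12, -0.36 and -0.48 uninduced. RPS15A, a ribosomal protein, stood apart from its list, at 0.74, 0.32 and 1.12 at days 4-5, against -0.62, -0.21 and -0.13 uninduced.

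The largest disagreements between series were in 5 genes. TNRC6B, of the microRNA silencing complex, had pair differences of 1.37, 0.36 and 6.53 in series 1332, 1332b and 2046, since its uninduced ratio in series 2046 was -6.82. IDS, a lysosomal sulfatase, had 3.90, -0.35 and 0.22, from a single high ratio of 4.15 at day 5. RIPOR2, CCN2 and CCM2 took their range from low uninduced ratios in series 1332. Without series 1332 the mean differences of IDS and CCN2 were -0.07 and -0.29, against 1.26 and 0.77 with it.

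The earlier window and the other cell lines were set beside these values. The KMS12 arrays at days 2-3 share the uninduced arrays, so their differences are only given side by side. INSIG1 stood at -1.28 at days 4-5 and -1.13 at days 2-3, SQLE at -0.90 and -1.08, CCNC at -0.82 and -1.98, and SCD at -0.93 and -0.30. AARS1 stood at -0.999 at days 4-5 and, over series 1332 and 1332b alone, at -0.11 at days 2-3. Its day 4-5 pair differences in those 2 series were -1.35 and -1.10. AARS1 differed here from its list, as the tRNA synthetases had a median of -0.55 at days 4-5 and -0.79 at days 2-3. SLC7A5 stood at -0.63 and -0.02, PYCR1 at -0.62 and 0.15, KDELR1 at -0.72 and 0.28, and KEAP1 at -0.74 and 0.17. In a limma fit of the days 4-5 arrays minus the days 2-3 arrays 0 of 3706 genes were called, with 800 at an unadjusted p under 0.05, so none of these differences between windows passed.

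H929 and SKMM1, 2 further myeloma lines with hairpin 2046 at day 4, share no array with KMS12, but their ratios were not set against uninduced arrays and keep any dye effect of a gene. IRF4 stood at 29.4% and 26.2% of the control level in H929 and at 25.01% in SKMM1. Of the 194 genes lower without overlap in KMS12, 167 were measured on all 3 of these arrays, and 94 of them (56.3%) lay below 0 on all 3, beside 32.7% of the 2658 genes tested and measured there. Of the 250 genes higher without overlap, 142 were measured and 58 (40.9%) lay above 0 on all 3, beside 34.95%. Restricted to genes measured on all 13 arrays, the shares were 58.3% of 156 beside 34.2%, and 41.6% of 101 beside 34.8%.

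Of the 15 lowest genes 14 were measured on the 3 arrays and 9 lay below 0 on each, among them SCD, SQLE, FADS1, HSPA9, ATF4 and IRF4. FADS1 had -0.71 and -2.08 in H929 and -0.61 in SKMM1. ELL2, FRMD6 and CCNC lay above 0 on all 3, with ELL2 at 0.48 and 0.60 in H929 and 1.38 in SKMM1. Tested as H929 minus KMS12 at days 4-5, ELL2 differed by 1.53, FRMD6 by 1.41 and CCNC by 1.05. Their limma adjusted p were 0.0802, 0.0535 and 0.146, and none of these genes passed. Over all genes that fit called 21 of 3548. PIM2 and AARS1 lay near 0 there, with PIM2 at -0.21 and 0.25 in H929 and -0.33 in SKMM1 and AARS1 at 0.00, -0.31 and -0.04. The tRNA synthetase list as a whole had a median ratio of -0.75 in H929 and -0.78 in SKMM1.

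**Figure D5:**
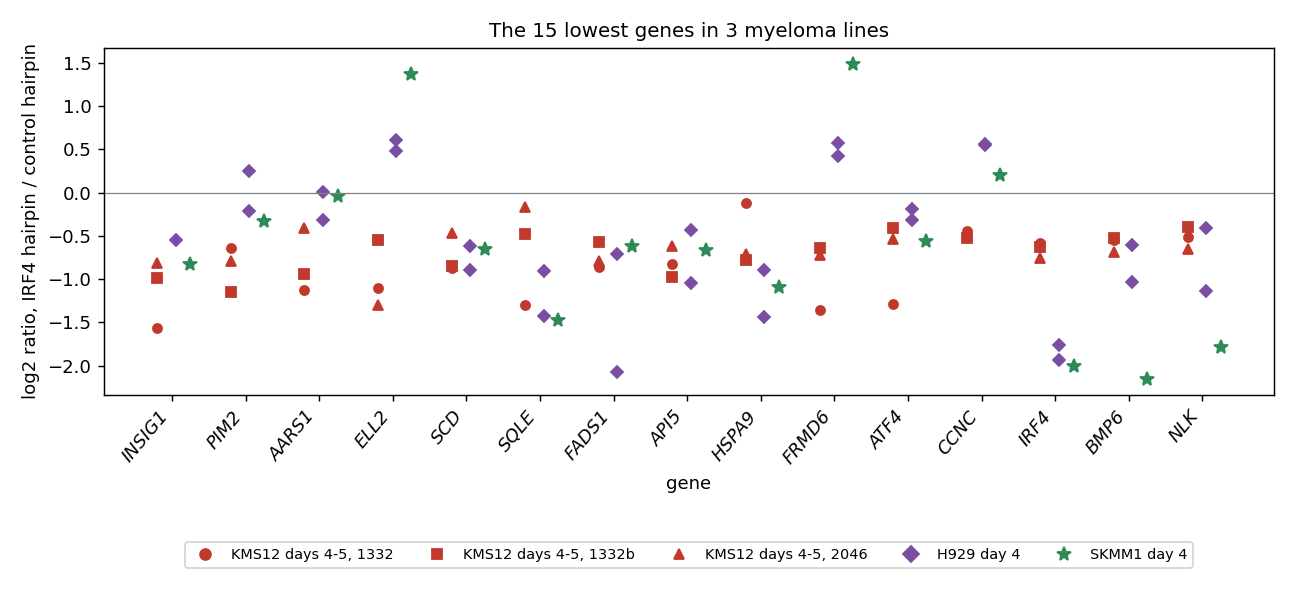
Log2 ratio of IRF4 hairpin over control culture for the 15 lowest genes, at days 4-5 in KMS12 (red, shape by series), and at day 4 in H929 (purple diamonds, 2 arrays) and SKMM1 (green stars, 1 array). SCD, SQLE, FADS1, HSPA9 and IRF4 lie below 0 in all 3 lines, whereas ELL2, FRMD6 and CCNC lie below 0 in KMS12 and above 0 in H929 and SKMM1.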

How the data were processed

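The deposited table holds, per the labels, 2-colour ratios of Lymphochip cDNA arrays, with Cy5 for the cells carrying the IRF4 hairpin and Cy3 for those with the luciferase hairpin on every array, and RNA from Trizol extraction. The authors deposited them as log ratios, taken here as log2 because no source used here gives the base; the normalization, the background correction and the rule for blank spots are likewise not given. The number of arrays limits the precision. No dye swap was made. The 3723 entries passed 1 filter, a value on all 6 arrays, after which arrays were centred on their median and features averaged per gene, and low signal could not be filtered since intensities were not used here. Ratios were tested with limma 3.58.1 in R 4.3.3 (lmFit, eBayes, two-sided), with the series as a block and Benjamini-Hochberg adjustment over all 3723, at a threshold of 0.05. The fit was also run on simulated data holding planted changes. How many of those it called is not given here, so the size of change it can detect is not stated. The series were taken as pairs because the comparison is defined that way. Deviations of same-series arrays from their group means had correlations of 0.15, 0.12 and 0.13 (series 1332, 1332b and 2046). Between arrays of unlike series these correlations ran from -0.16 to 0.07. No 2 arrays held identical values.

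Gene symbols came from the platform annotation, updated by gene ID: 10169 features had 1 symbol, 4 several and 5073 none, and 10128 were matched. Of 874 tested genes with several features, 339 had features of unlike sign. The comparison, the 38 gene lists (571 listed genes tested, 28 of them in 2 or more lists) and the naming rule were chosen with earlier results of these data known. The rule named IRF4, the 15 lowest and 15 highest genes without overlap, the 10 with the smallest p, the 2 lowest and 2 highest members of each list with at least 4 measured members, and the 5 with the widest range over series. Also named, after their values were seen, were listed genes without overlap, regulators and markers known for a list, and the 15 highest genes measured on all 13 arrays. Alternatives changed the block, the feature filter, the centring, the scale, the averaging, the baseline, the shrinkage or the series included.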

Additional observations from a re-analysis of the deposited data

How the results depend on the processing

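The count of genes called was 0 under all 16 alternatives, with smallest adjusted p from 0.0656 (without series 1332b) to 0.988. Genes at an unadjusted p under 0.05 numbered 367 in the paired fit, 296 with no replicate block, 562 without series 1332b and 174 without series 2046. The block changed no call. It cannot move a mean difference in this balanced design, so the IRF4 difference was -0.81 with and without it. Alternatives that changed only the block, the arrays behind the spread or the shrinkage likewise left mean differences as they were. Over the alternatives IRF4 stayed below 0, from -1.05 to -0.66, with adjusted p from 0.207 to 0.988. With no centring the median of all genes would be -0.16. Genes without overlap, 194 lower and 250 higher, numbered 397 and 92 with arrays centred on every feature, 384 and 113 with no centring, 525 and 562 against 0, and 255 and 343 without the uninduced array of series 2046, an alternative added after the data were seen. Leaving out 1 series gave 462 to 730 lower and 608 to 870 higher, because fewer arrays overlap less easily.

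Some named genes changed sign. EZR (0.12) was -0.024 with features measured in 2 of 3 series, -0.079 centred on every feature and -0.06 with no centring. The last 2 settings lower each of the 170 named genes by the same 0.199 or 0.181, and the first lowers 90 of them by 0.144, so the sign of EZR turns with the centring. With features on at least 10 of 13 arrays FCGR2B was -0.19, FCRL5 -0.32 and MAP3K14 -0.09, beside 1.71, 1.62 and 1.56 in the paired fit. Against 0, RIPOR2 was -0.086, FCRL5 -0.05, CCN2 -0.36, TKT -0.16, MAP3K14 -0.23, NDUFV2 0.032, PSMF1 0.014, RPS3 0.027 and NFKB1 0.023. In the paired fit TKT was 0.275, NDUFV2 -0.361, PSMF1 -0.265, RPS3 -0.288 and NFKB1 -0.102. Without series 1332, IDS was -0.067 and CCN2 -0.288, the lowest of ranges that reached 2.057 for IDS and 1.513 for CCN2 with 1 series left out. The cause of the changes other than that of EZR was not tested. Intensities were not used here, so what depends on brightness could not be measured.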

Other observations

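Histone genes were looked at after the values were seen. Of 6 tested, 5 lay above 0 with a median difference of 0.63. H1-2, H1-3, H2AC18 and H2BC12 were higher without overlap (4 of 6, beside 6.72% of all genes). H1-2 had log2 ratios of 0.88, 0.99 and 0.78 at days 4-5, against 0.11, 0.25 and 0.51 uninduced. H2BC12 had 0.95, 0.96 and 1.09 at days 4-5 and 0.12, 0.35 and 0.53 uninduced. None passed in the paired fit (limma adjusted p 0.477 for H1-2 and 0.418 for H2BC12). In the other lines H1-2 lay at -0.45 and -0.41 in H929 and at 0.40 in SKMM1. Tested as H929 minus KMS12 at days 4-5, H1-2 differed by -1.31 (limma adjusted p 0.0443). Those are ratios not set against uninduced arrays. H3-3B, a histone variant made outside of replication, differed by -0.04. The histone genes have near-identical copies, so a spot may read several of them.

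Integrins were also mostly above 0, 12 of 14 with a median of 0.22, beside 1953 of all 3723 genes above 0. Higher without overlap were 2 of the 14, beside 6.72% of all genes, and 6 of the 14 were measured on all 13 arrays. RAB GTPases, which steer vesicles, lay below 0 in 9 of 12 (median -0.13). Solute carriers as a family were evenly split, 12 below and 13 above 0, with SLC7A5 and SLC3A2 the lowest 2 of 25.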
